A study of Mus musculus with 40 samples.

Results

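The 35 genes described here code for synaptic adhesion molecules (28 genes) and for proteins of the perineuronal matrix (7 genes). They were taken from a list of symbols, and all 35 were among the 32531 gene symbols counted in each library. Ribosome-bound RNA came from mice of the line Drd1-TRAP CP73 (tissue: accumbens nucleus), of FVB/N-Swiss Webster origin crossed to C57BL/6 for at least 9 generations. In these mice the D1 dopamine receptor gene's regulatory sequence drives a ribosomal protein tagged with EGFP, so that pulling down EGFP recovers mainly the RNA that D1 medium spiny neurons were translating. All groups carried the transgene and all had gone through intravenous self-administration sessions.

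The libraries fell into 6 groups. At 24 hours after self-administration there were 5 libraries from escalating cocaine mice, 9 from nonescalating cocaine mice and 6 from saline mice. At 1 month there were 4 escalating, 10 nonescalating and 5 saline libraries. The nonescalating library 1595 of the 1-month set held 5168 counts and was left out, which leaves 39 of 40. Libraries are named by the number in their label. The labels also number the replicates of each group. In both nonescalating groups these replicate numbers start anew part-way, and the labels do not say why. The libraries before the restart are called the first run. The labels do not say whether libraries came from separate animals, so n counts libraries, and p-values measure the spread between these libraries only.

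Synaptic adhesion molecules hold the presynaptic and postsynaptic membranes together and instruct each other across the cleft. Neurexins and the receptor tyrosine phosphatases Ptprs, Ptprd and Ptprf sit mainly on the axon side. Neuroligins and LRRTM proteins sit mainly on the dendrite side and bind neurexins, SLITRK proteins bind the phosphatases there, and Lrrc4 (netrin-G ligand 2) binds netrin-G2. The perineuronal matrix is a lattice of hyaluronan on which lecticans (aggrecan, brevican, neurocan and versican) are fixed by link proteins (Hapln1, Hapln4) and crosslinked by tenascin-R. It condenses into nets around fast-spiking interneurons, and astrocytes, oligodendrocyte lineage cells and neurons each make some of its components.

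Total counts per library lay between 3.77 M (saline 1573, 24 hours) and 33.9 M (saline 1594, 1 month). At 24 hours 3 libraries stood apart from the rest. In saline library 1573, 70.3% of uniquely placed reads were counted to no annotated feature. Its mean D1 marker level was 4.96 log2 CPM. Astrocyte markers summed to 3700 CPM there and oligodendrocyte markers to 1660 CPM, the highest of all libraries. Saline library 1574 held reads for 11375 symbols, the fewest of the 39, and vascular markers summing to 3070 CPM. Nonescalating library 1582 held reads for 11661 symbols. For the adhesion and matrix genes described here, results that rest on these 3 libraries are given with and without them. Fold changes of marker genes and of further genes of the same systems are given with all libraries only. Because the RNA is a pool of many cells, fewer cells of a type and less RNA per cell cannot be told apart.

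The adhesion genes formed a well-expressed and steady set, whereas the matrix genes were dominated by 1 gene. Levels are given as CPM, counts relative to a library total scaled by edgeR's TMM factors. Divided by exon length in kilobases, so that genes can be set side by side, the highest mean levels over 39 libraries were those of Cadm3 at 63.8 ± 20.8 CPM per kb, Ncan at 48.2 ± 12.4, Ncam1 at 47.8 ± 13, Nrxn3 at 47.8 ± 8.06 and Lrrtm3 at 45.2 ± 8.90 (SD, n = 39). Cadm3 (synaptic cell adhesion molecule 3) and Ncam1 are immunoglobulin-type adhesion proteins, Nrxn3 is a neurexin and Lrrtm3 a postsynaptic neurexin partner. These neighbours in the order did not differ beyond their spread. By the length of the longest transcript Cadm3 (89.7 CPM per kb) also came first, but followed by Nrxn3 (76.0), Cntn1 (70.2), Ncam1 (63.1), Lrrtm3 (49.3) and Ncan (48.2).

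Among presynaptic adhesion genes, Nrxn3 stood well above Nrxn2 (5.56 ± 2.08 CPM per kb). Of the tyrosine phosphatases, Ptprs had 14.4 ± 2.83, Ptprf 6.33 ± 2.12 and Ptprd 2.55 ± 1.04 CPM per kb (SD, n = 39). Levels depend on the length used where annotated exons sum to far more than the longest transcript: with that transcript's length the means of Ptprd and Ptprs were 5.88 and 31.6 CPM per kb. The SynCAM genes ran Cadm3, Cadm2 (16.8 ± 6.67), Cadm4 (12.6 ± 6.23) and Cadm1 (10.8 ± 3.0 CPM per kb). The last 2 differed by less than 1 SD, and by the longest transcript Cadm1 (23.7) came before Cadm2 (17.2) and Cadm4 (12.6 CPM per kb).

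Of the postsynaptic partners, Nlgn2 had 38.9 ± 12.3, Nlgn3 26.3 ± 8.59 and Nlgn1 10.7 ± 3.19 CPM per kb (SD, n = 39). Neuroligin 2 serves mainly inhibitory synapses, neuroligin 1 mainly excitatory ones, and neuroligin 3 both. Of Nlgn3 exon bases, 41.2% are shared with Gm21986 on the same strand, and 25.1% of those of Lrrtm4 with the antisense gene Gm4409, so reads of these genes may not be separable. The LRRTM genes ranged from Lrrtm3 at 45.2 over Lrrtm1 (21.6 ± 5.83) and Lrrtm2 (13.5 ± 3.99) to Lrrtm4 (10.2 ± 3.54 CPM per kb). The SLITRK genes, ligands of the tyrosine phosphatases, ranged from Slitrk3 (24.6 ± 6.54), Slitrk5 (22.5 ± 7.28) and Slitrk1 (13.2 ± 7.32) to Slitrk4 (6.59 ± 2.32) and Slitrk2 (4.11 ± 1.90 CPM per kb). Lrrc4 had 14.7 ± 6.56 CPM per kb.

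Of the remaining adhesion genes, Cntn1 (contactin 1) had 42.2 ± 9.61 CPM per kb, Cntnap2 21.1 ± 4.92 and Cntnap1 19.7 ± 6.23 (SD, n = 39). Cntnap1 and Cntnap2 code for contactin-associated proteins that sit beside and next to the node of Ranvier in axons. Epha4, an ephrin receptor, had 26.5 ± 7.62 CPM per kb, and Cdh2 (N-cadherin) 13.7 ± 3.79 CPM per kb. The adhesion genes thus spanned from 2.55 to 63.8 CPM per kb of exons.

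Of the summed matrix CPM, Ncan (neurocan) made up 77.5%, Tnr (tenascin-R) 14.4% and the other 5 genes 8.12%. Tnr had 5.02 ± 2.05 CPM per kb, Bcan (brevican) 2.44 ± 4.67, Hapln4 2.32 ± 2.26, Vcan (versican) 1.03 ± 1.90, Hapln1 0.293 ± 0.690 and Acan (aggrecan) 0.101 ± 0.192 (SD, n = 39). For Bcan, Vcan, Hapln1 and Acan the SD exceeded the mean. Acan, the lectican most typical of nets around parvalbumin interneurons, was at 0 counts in 17 of 39 libraries, where a count of 0 allows up to 0.254 to 0.512 CPM (3 counts of the scaled library total). Hapln1 was at 0 in 3 libraries. These limits cover counting error only.

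Within groups, the SD of log2 CPM had a median of 0.48 over the 28 adhesion genes (0.30 to 1.08) and of 1.25 over the 7 matrix genes (0.34 to 1.58), against 1.13 over the 15579 genes tested. Low counts raise this SD, and 5 of the 7 matrix genes averaged under 15 CPM.

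**Figure D1:**
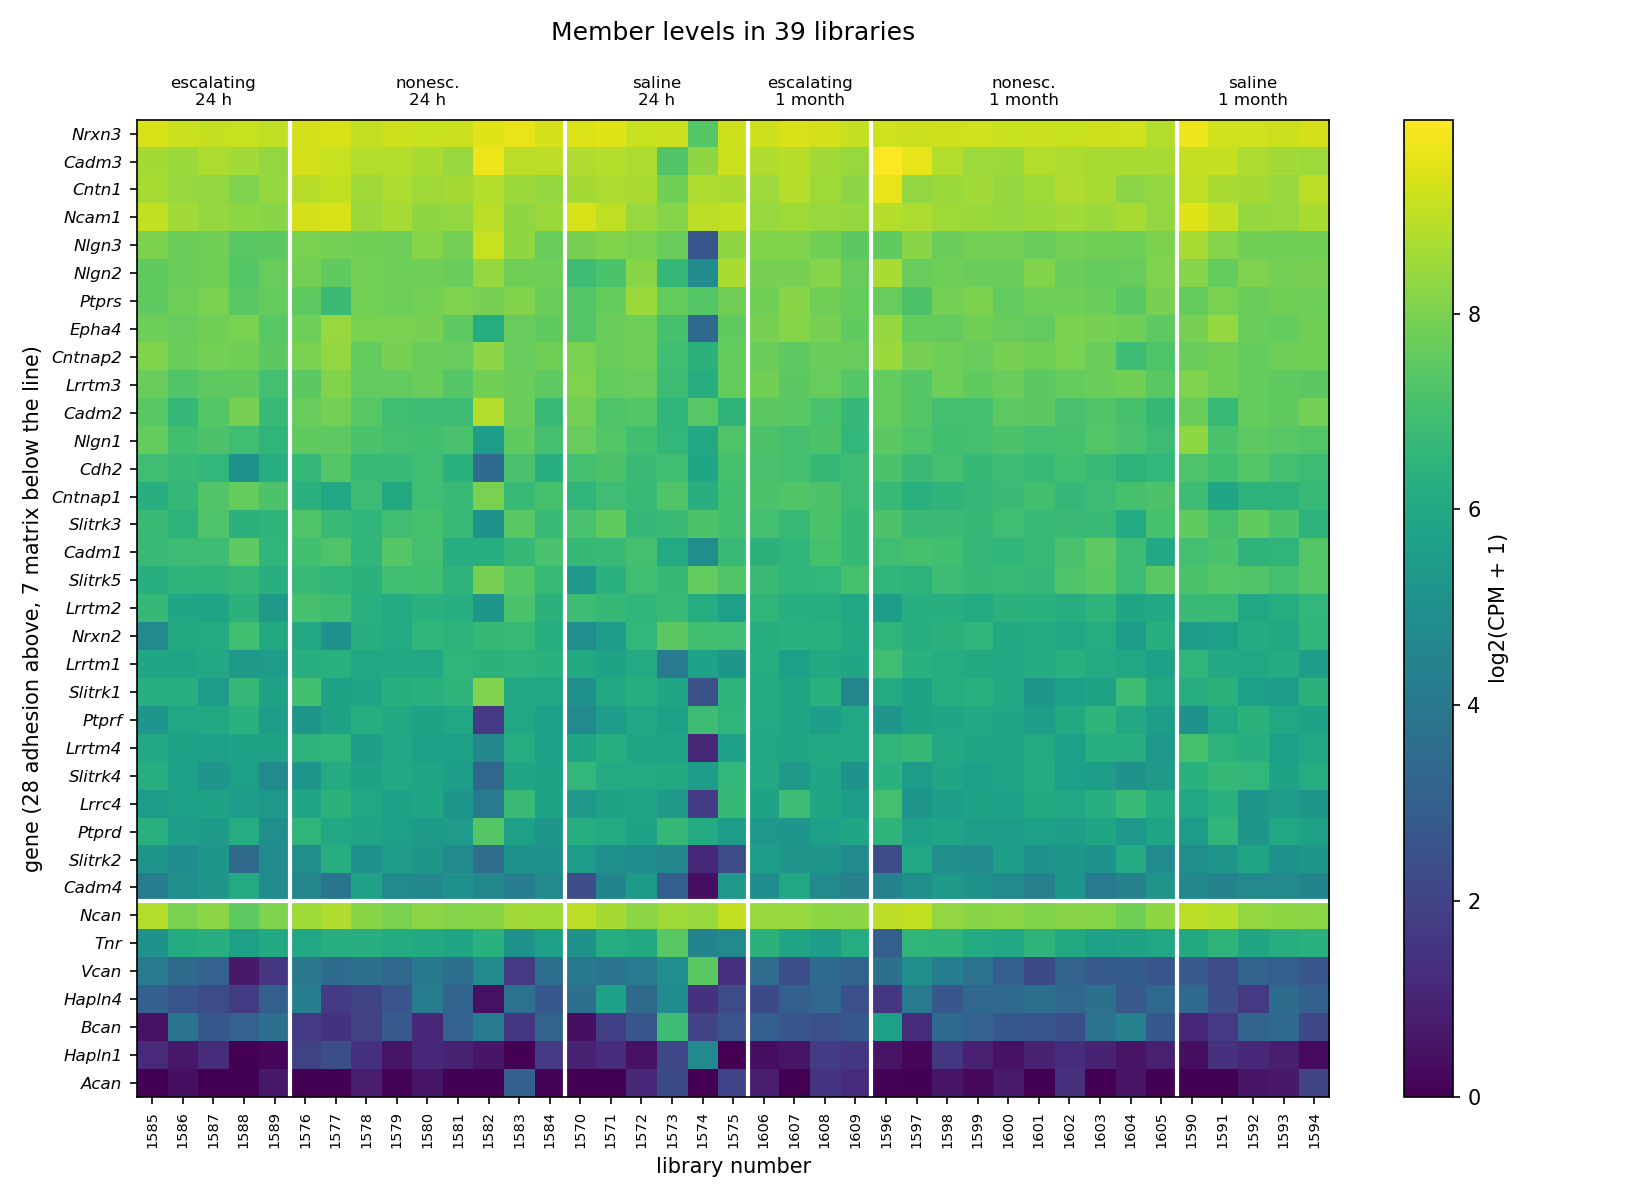
Levels of the 35 genes as log2(CPM + 1), 1 column per library and 1 row per gene, with groups separated by white lines and genes ordered by median within each class. The adhesion rows are even in most columns, with low cells in saline library 1574 (Nlgn3 at 5.45 CPM, Lrrtm4 at 1.16 CPM) and nonescalating library 1582 (Ptprf at 2.16 CPM), while matrix rows below Ncan and Tnr are low and uneven.

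The lecticans lie next to link protein genes in the genome (GRCm38, GENCODE vM21). Ncan (chromosome 8, 70093085 to 70120873, minus strand) and Hapln4 (chromosome 8, 70083457 to 70090862) are 2222 bases apart. Vcan (chromosome 13, 89655312 to 89742509) and Hapln1 (chromosome 13, 89539796 to 89611652) are 43659 bases apart. No protein-coding gene lies between the members of either pair. Ncan and Hapln4 differed widely in level (48.2 and 2.32 CPM per kb) despite their distance.

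The promoters of Ncan and Acan are shown because these genes have the highest and the lowest level per length of the 4 lecticans. Each window covers 250 bases before and 50 bases after the RefSeq start on GRCm38.p6, read 5′ to 3′ on the gene's strand. Capitals mark a match to TATAAA on either strand. The windows are chr8:70120795-70121094 (minus strand) for Ncan and chr7:79052976-79053275 (plus strand) for Acan.
Ncan: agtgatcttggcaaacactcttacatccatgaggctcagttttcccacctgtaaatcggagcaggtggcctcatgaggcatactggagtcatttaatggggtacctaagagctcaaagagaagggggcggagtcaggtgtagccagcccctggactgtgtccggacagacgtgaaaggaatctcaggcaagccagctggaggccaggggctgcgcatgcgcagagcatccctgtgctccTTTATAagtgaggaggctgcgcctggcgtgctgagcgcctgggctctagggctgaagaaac
Acan: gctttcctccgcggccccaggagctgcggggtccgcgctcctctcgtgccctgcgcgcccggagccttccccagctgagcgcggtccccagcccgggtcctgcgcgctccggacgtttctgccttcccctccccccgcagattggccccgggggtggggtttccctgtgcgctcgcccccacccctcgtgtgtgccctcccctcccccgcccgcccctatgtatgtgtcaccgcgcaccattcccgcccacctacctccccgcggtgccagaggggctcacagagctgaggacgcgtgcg

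The Ncan window held 56.7% G and C and 9 CpG dinucleotides, against 74.0% and 31 in the Acan window. The match in Ncan lies on the opposite strand and starts 11 bases before the start. Of 32851 mouse promoters of this length, 13.6% held TATAAA on either strand. The Bcan window (chromosome 3) and the Vcan window (chromosome 13) held 64.0% and 61.0% G and C and no match. Promoter entries were found for 25 of the 35 genes, some with more than 1 start. Among their windows, 2 of 28 adhesion windows and 0 of 6 matrix windows held the AP-1 motif TGANTCA, which 7.81% of all promoters hold on either strand. The cAMP response element TGACGTCA was in 2 adhesion windows and 0 matrix windows, against 1.79% of all promoters. A match to these letters is not evidence of a site.

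The first question the design poses is whether cocaine mice differed from saline mice at 24 hours. No adhesion or matrix gene passed an adjusted p of 0.05 in either cocaine group (edgeR quasi-likelihood test, Benjamini-Hochberg over 14137 genes), and neither did any other gene, so 0% of genes tested were called. In a fit of all 39 libraries edgeR called 0 genes with escalating and 129 with nonescalating mice, none of them members. DESeq2 called 8 genes with escalating and 164 with nonescalating mice, none of them members, and limma voom 0. Of the members, 28 adhesion genes and 6 matrix genes passed the filter on low counts, and Acan did not. Both cocaine groups share the 6 saline libraries, so their values are given side by side and are not independent.

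No matrix gene passed the test at 24 hours. All 6 tested had fold changes below 0 with escalating mice, as did 54.4% of genes tested, and all 6 with nonescalating mice, against 52.4%. The median log2 fold change was −1.64 with escalating and −1.44 with nonescalating mice, against medians of −0.06 and −0.03 over all genes. Without libraries 1573, 1574 and 1582 these medians were −0.33 and 0.07, and the direction was no longer shared: Bcan was at 1.25 with escalating and 0.29 with nonescalating mice, Tnr at 0.25 and 0.29, and Hapln1 at −0.07 and 1.25. With all libraries, unadjusted p was under 0.05 for 4 and 2 of the 6 genes (3.74% and 7.72% of all genes in that direction) by edgeR. Without those 3 libraries only Ncan and Hapln4 remained with escalating mice (edgeR p = 0.0161 and 0.0113), against 1277 of 14330 genes in either direction. With nonescalating mice none did, and the lowest edgeR p was 0.0771 (Ncan).

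Vcan had 16.9, 10, 7.88, 0.620 and 1.98 CPM in the 5 escalating libraries. It had 2.18 to 27.2 CPM in the 9 nonescalating libraries (median 11.3), against 1.69 to 177 CPM in the 6 saline libraries (median 16.1). Only saline library 1574 stood far above the others, and the groups overlapped. Its log2 fold change was −2.51 ± 0.88 with escalating mice (SE, edgeR p = 0.00819, adjusted p = 0.953, lower than the saline mean in 5 of 5 libraries) and −1.76 ± 0.70 with nonescalating mice (edgeR p = 0.018, adjusted p = 0.367, 9 of 9 lower). Without library 1574 the values were −1.03 and −0.28.

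Bcan had 0.347, 13.3, 5.65, 7.85 and 11.6 CPM in escalating libraries. It had 1.16 to 16 CPM in nonescalating libraries (median 2.76), against 0.327 to 114 CPM in saline libraries (median 4.01). Saline library 1573 alone lay above 16 CPM. The log2 fold change of nonescalating mice was −2.04 ± 0.89 (SE, edgeR p = 0.0304, adjusted p = 0.422), and 0.71 without library 1573, so its direction rests on that library.

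The steadier Ncan had 458, 248, 304, 182 and 261 CPM in escalating libraries. It had 252 to 439 CPM in nonescalating libraries (median 305), against 303 to 538 CPM in saline libraries (median 390). The groups overlapped, with 3 of 5 escalating libraries below every saline library. The log2 fold change of escalating mice was −0.52 ± 0.23 (SE, edgeR p = 0.0322, adjusted p = 0.955). Without the 3 libraries that stood apart it was −0.58 ± 0.22 (edgeR p = 0.0161, adjusted p = 0.464), so the value did not rest on them.

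Hapln1 and Tnr each had 1 saline library set far above the others, and Hapln4 did not. Hapln1 had at most 4.26 CPM in the cocaine libraries at 24 hours, against 25.8 CPM in saline library 1574. Tnr ran from 33.2 to 75.7 CPM in escalating and 32.7 to 82.9 CPM in nonescalating libraries, against 21.7 to 171 CPM in saline libraries, with its top in library 1573. Hapln4 had 2.38 to 7.28 CPM in escalating and 0.382 to 18.5 CPM in nonescalating libraries, against 1.65 to 51.8 CPM in saline libraries, with library 1571 at the top and library 1573 next at 27.6 CPM. Without the libraries that stood apart, Hapln4 had a log2 fold change of −1.88 ± 0.69 with escalating mice (edgeR p = 0.0113, adjusted p = 0.45). With nonescalating mice it was −1.09 ± 0.6 (edgeR p = 0.0824, adjusted p = 0.814). Library 1571 stays in that fit, and the other saline libraries in it had 11.8, 9.79 and 3.9 CPM. A value without library 1571 is not given here.

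Markers of other cell types were lower in part of the same comparisons, with 0 called by edgeR. With escalating mice 8 of 10 astrocyte markers and 10 of 10 oligodendrocyte markers were lower than in saline, and with nonescalating mice likewise 8 of 10 and 10 of 10. Interneuron markers were lower in 7 of 7 tested with escalating mice (median log2 fold change −2.07) and 5 of 7 with nonescalating mice (median −0.95). Vascular markers were lower in 8 of 12 with escalating mice (median −0.26) and 12 of 12 with nonescalating mice (median −1.68). Summed astrocyte markers ran from 355 to 714 CPM in escalating, 427 to 1510 CPM in nonescalating and 521 to 3700 CPM in saline libraries. Summed oligodendrocyte markers ran from 114 to 235 CPM in escalating, 128 to 527 CPM in nonescalating and 96.4 to 1660 CPM in saline libraries. Interneuron markers summed to 24.6 to 51.4 CPM in escalating, 40.9 to 273 CPM in nonescalating and 48.6 to 433 CPM in saline libraries, and vascular markers to 283 to 2650 CPM in escalating, 140 to 729 CPM in nonescalating and 283 to 3070 CPM in saline libraries. Medians in escalating, nonescalating and saline libraries were 471, 674 and 741 CPM for astrocyte and 139, 195 and 163 CPM for oligodendrocyte markers. For interneuron markers they were 37.5, 56.4 and 109 CPM, and for vascular markers 837, 410 and 559 CPM. Marker fold changes are given with all libraries only, including 1573, 1574 and 1582. No gene of these 4 lists was at 0 throughout a group. Of the interneuron markers, Pvalb was at 0 in 26 of 39 libraries and Sst had at most 215 CPM (library 1573). Their part in the matrix values was not tested.

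**Figure D2:**
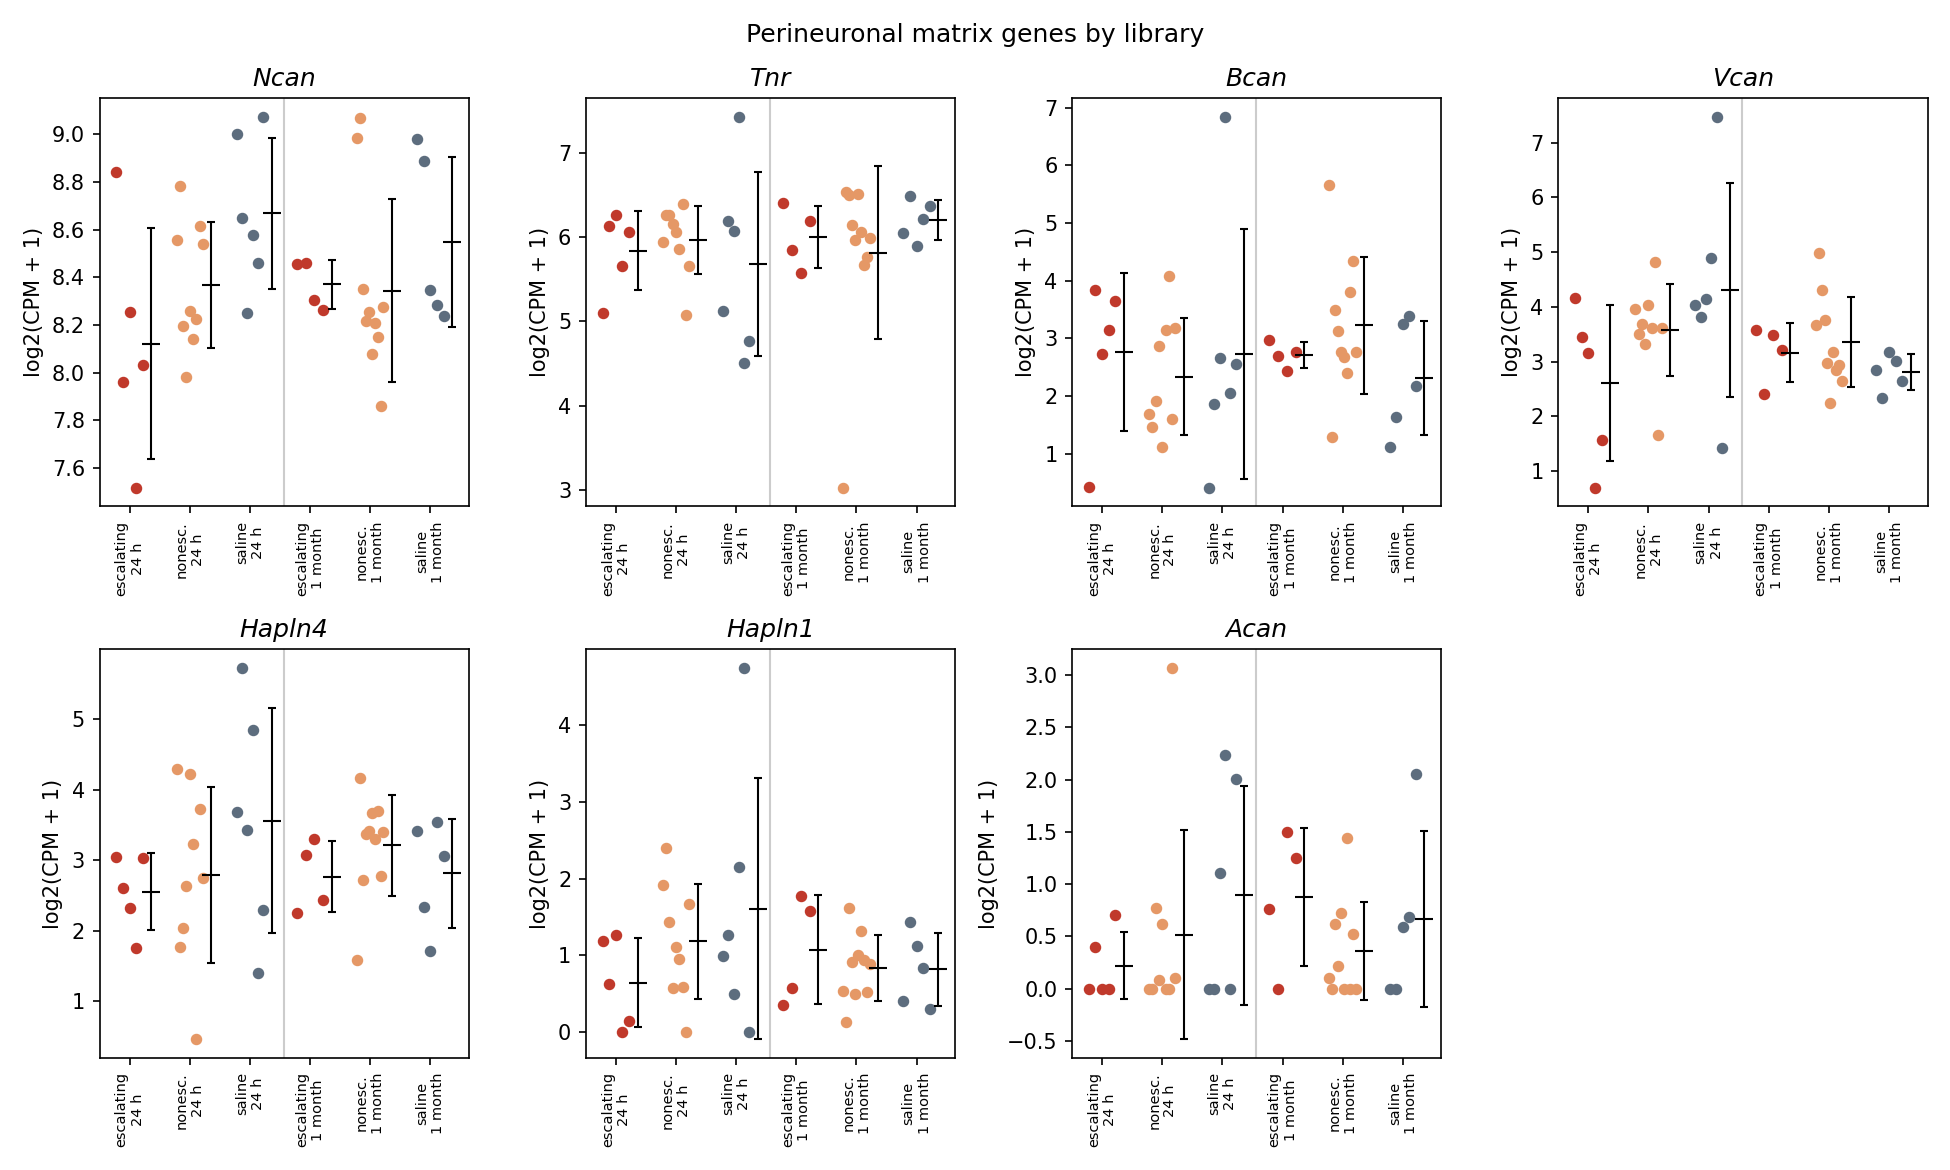
The 7 matrix genes as log2(CPM + 1), 1 point per library in each of the 6 groups, with the group mean and SD as a bar beside the points. Single saline libraries at 24 hours set the top of Bcan (114 CPM), Vcan (177 CPM), Hapln1 (25.8 CPM) and Tnr (171 CPM), while Ncan stays within 182 to 538 CPM over all libraries.

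The adhesion genes at 24 hours lay on both sides of 0. With escalating mice 13 were higher and 15 lower than in saline, with a median log2 fold change of −0.05 and a range of −0.61 to 0.91. With nonescalating mice 21 were higher and 7 lower, against 47.6% of all genes higher, with a median of 0.20. Without the 3 libraries that stood apart the medians were −0.17 and 0.00. No adhesion gene with escalating mice had an unadjusted p under 0.05 (5.16% of all genes), and 1 with nonescalating mice was higher at that p (2.25% of all genes).

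That gene was Lrrtm1, a neurexin-binding organizer of excitatory synapses. It had 60.4 to 91.3 CPM in nonescalating libraries (median 80.3), against 16.4 to 67.0 CPM in saline libraries (median 53.4). EdgeR gave a log2 fold change of 0.63 ± 0.27 (SE, edgeR p = 0.0293, adjusted p = 0.421), with 9 of 9 libraries above the saline mean. Without the 3 libraries that stood apart it was 0.43 ± 0.22 (adjusted p = 0.792 by edgeR). Cntnap2 (0.42 ± 0.21, edgeR p = 0.0606), Slitrk1 (0.84 ± 0.43, p = 0.0638) and Cadm3 (0.39 ± 0.22, p = 0.095) came next in the edgeR test, and their adjusted p was 0.521 to 0.573. Without those 3 libraries they were at 0.09 ± 0.16, 0.22 ± 0.27 and 0.01 ± 0.15.

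With escalating mice the lowest edgeR p-values among adhesion genes were those of Slitrk4 (log2 fold change −0.61 ± 0.39, p = 0.123), Ncam1 (−0.35 ± 0.25, p = 0.168), Cadm4 (0.91 ± 0.65, p = 0.177) and Cadm1 (0.42 ± 0.31, p = 0.188). Their adjusted p was 0.969 to 0.985. Without library 1588, Cadm4 was at 0.54 and Cadm1 at 0.23. Without the 3 libraries that stood apart, Slitrk4 was at −0.77 ± 0.27 (edgeR p = 0.00819, adjusted p = 0.439), Nlgn3 at −0.38 ± 0.17 (p = 0.0371) and Cdh2 at −0.56 ± 0.27 (p = 0.0498). With nonescalating mice and without the same 3 libraries, Slitrk4 was at −0.59 ± 0.24 (edgeR p = 0.0219, adjusted p = 0.751). It was the only 1 of 34 members with an unadjusted p under 0.05 there, against 903 of 14330 genes. With all libraries, Slitrk4 averaged 47.6 ± 18 CPM in escalating and 49.4 ± 17.9 CPM in nonescalating libraries, against 72.6 ± 20.4 CPM in saline libraries (SD, n = 5, 9 and 6).

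Saline library 1574 was low in single adhesion genes rather than in all of them. In it 8 of 28 lay below 20% of their median over the 39 libraries: Nlgn2, Nlgn3, Cadm4, Lrrtm4, Slitrk1, Slitrk2, Epha4 and Lrrc4. Nlgn3 was at 5.45 CPM there, against 206 CPM in the next saline library, and Lrrtm4 at 1.16 against 51.9 CPM. Its values for Ncam1 (500 CPM) and Cadm3 (322 CPM) lay inside the saline range, and Cntn1 (443 CPM) was the highest of the saline libraries. In nonescalating library 1582, Slitrk4, Ptprf and Cdh2 lay below 20% of their medians, and 6 adhesion genes lay above 2 times theirs. In the other 37 libraries at most 1 adhesion gene lay below 20%.

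Escalating and nonescalating mice at 24 hours, which were compared directly to ask about the pattern of intake, gave no call in any member (0% of genes tested called by edgeR). DESeq2 called 3 genes, none of them members, and limma voom 0. Of the 28 adhesion genes 24 were lower in escalating mice, against 52.4% of all genes, with a median log2 fold change of −0.20. None had an unadjusted p under 0.05 by edgeR, against 3.15% of all genes. Cadm3 averaged 378 ± 39 CPM in escalating and 525 ± 147 CPM in nonescalating libraries (SD, n = 5 and 9). Its log2 fold change was −0.48 ± 0.24 (SE, edgeR p = 0.0565, adjusted p = 1). Lrrtm1 averaged 52.4 ± 10.2 CPM in escalating and 76.3 ± 11.5 CPM in nonescalating libraries, with −0.54 ± 0.29 (edgeR p = 0.0738, adjusted p = 1). Slitrk5 (−0.56 ± 0.31, p = 0.079) and Cntn1 (−0.31 ± 0.18, p = 0.0982) came next. In these 4 genes 5 of 5 escalating libraries lay below the nonescalating mean. Without library 1582 Slitrk5 was at −0.37. Without the 3 libraries that stood apart, Cadm3 was at −0.35 ± 0.14 (edgeR p = 0.0226, adjusted p = 0.667), Lrrtm1 at −0.51 ± 0.20 (p = 0.0181) and Cntnap1 at 0.45 ± 0.22 (p = 0.0498). Matrix genes had a median of −0.43, with Vcan at −0.75 ± 0.77 and Ncan at −0.20 ± 0.21 (edgeR p = 0.343 and 0.352). Vascular markers were higher in 12 of 12 in escalating mice (median 1.43) and interneuron markers lower in 7 of 7 (median −0.88), and their part in these values was not tested.

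At 1 month, 35 of 35 members were tested among 14181 genes, and edgeR called 0% of genes and no member in any comparison. Limma voom called 0 genes, and DESeq2 called 0, 8 and 0 genes with escalating against saline, nonescalating against saline and escalating against nonescalating mice, none of them members. The adhesion genes leaned lower in both cocaine groups: 22 of 28 were lower than in saline with escalating mice and 20 of 28 with nonescalating mice, against 51% and 47.5% of all genes. The median log2 fold changes were −0.13 and −0.10. Unadjusted p was under 0.05 for 4 adhesion genes with each cocaine group (3 lower and 1 higher with escalating, 4 lower with nonescalating mice). Of all genes, 4.36% and 4.53% reached this. Both groups again share the saline libraries.

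Slitrk4, a postsynaptic transmembrane protein (chromosome X, 64264885 to 64276996), had 63.9, 40.3, 57.5 and 33.3 CPM in escalating libraries. It had 33.7 to 81.4 CPM in nonescalating libraries (median 48.7), against 81.1, 103, 96.2, 55.0 and 71.5 CPM in saline libraries. Saline libraries 1591 and 1592 lay above all cocaine libraries, but saline library 1593 lay inside both cocaine ranges. Saline libraries 1590 (81.1 CPM) and 1594 (71.5 CPM) lay inside the nonescalating range. EdgeR gave log2 fold changes of −0.73 ± 0.26 with escalating mice (SE, edgeR p = 0.00823, adjusted p = 1, 4 of 4 below the saline mean) and −0.62 ± 0.20 with nonescalating mice (edgeR p = 0.0045, adjusted p = 0.986, 9 of 10 below). Leaving out any 1 library gave −0.89 to −0.60 and −0.74 to −0.53.

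Nlgn1, the neuroligin of excitatory synapses (chromosome 3, 25426215 to 26332460), had 147, 129, 147 and 95.7 CPM in escalating libraries. It had 115 to 176 CPM in nonescalating libraries (median 135), against 312, 143, 181, 166 and 159 CPM in saline libraries. Saline library 1590 lay far above the rest, and the groups overlapped between 143 and 147 CPM with escalating and up to 176 CPM with nonescalating mice. The log2 fold change was −0.56 ± 0.20 with escalating mice (SE, edgeR p = 0.00901, adjusted p = 1) and −0.46 ± 0.16 with nonescalating mice (edgeR p = 0.00753, adjusted p = 0.986). Without library 1590 it was −0.31 and −0.21.

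Ncam1 (chromosome 9, 49502136 to 49798925) had 343, 378, 349 and 334 CPM in escalating libraries. It had 330 to 470 CPM in nonescalating libraries (median 364), against 717, 555, 334, 342 and 423 CPM in saline libraries. The difference lay in saline libraries 1590 and 1591, and the other 3 lay within the nonescalating range. The log2 fold change was −0.42 ± 0.18 with escalating and −0.31 ± 0.14 with nonescalating mice (SE, edgeR p = 0.0237 and 0.0355, adjusted p = 1 and 0.986), and −0.22 and −0.11 without library 1590. Slitrk3 completed the 4 lowest p-values with nonescalating mice, at 111 ± 20.6 CPM against 146 ± 41.3 CPM in saline (SD, n = 10 and 5). Its log2 fold change was −0.39 ± 0.17 (SE, edgeR p = 0.0289, adjusted p = 0.986).

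Of the 6 adhesion genes higher with escalating mice, only Cntnap1 (chromosome 11, 101170523 to 101190724) had an unadjusted p under 0.05. Its protein helps to form the junctions beside nodes of Ranvier. Cntnap1 had 142, 154, 147 and 115 CPM in escalating libraries. It had 80.1 to 147 CPM in nonescalating libraries (median 109), against 116, 58.5, 86.6, 86.1 and 108 CPM in saline libraries. Only the top saline and the lowest escalating library overlapped. The log2 fold change with escalating mice was 0.62 ± 0.20 (SE, edgeR p = 0.00397, adjusted p = 1, 4 of 4 above the saline mean) and stayed between 0.50 and 0.73 when any 1 library was left out. Against nonescalating mice it was 0.33 ± 0.17 (edgeR p = 0.0654, adjusted p = 0.999). At 24 hours Cntnap1 averaged 134 ± 47.4 CPM in escalating, 116 ± 55.5 CPM in nonescalating and 112 ± 26.2 CPM in saline libraries (SD, n = 5, 9 and 6).

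**Figure D3:**
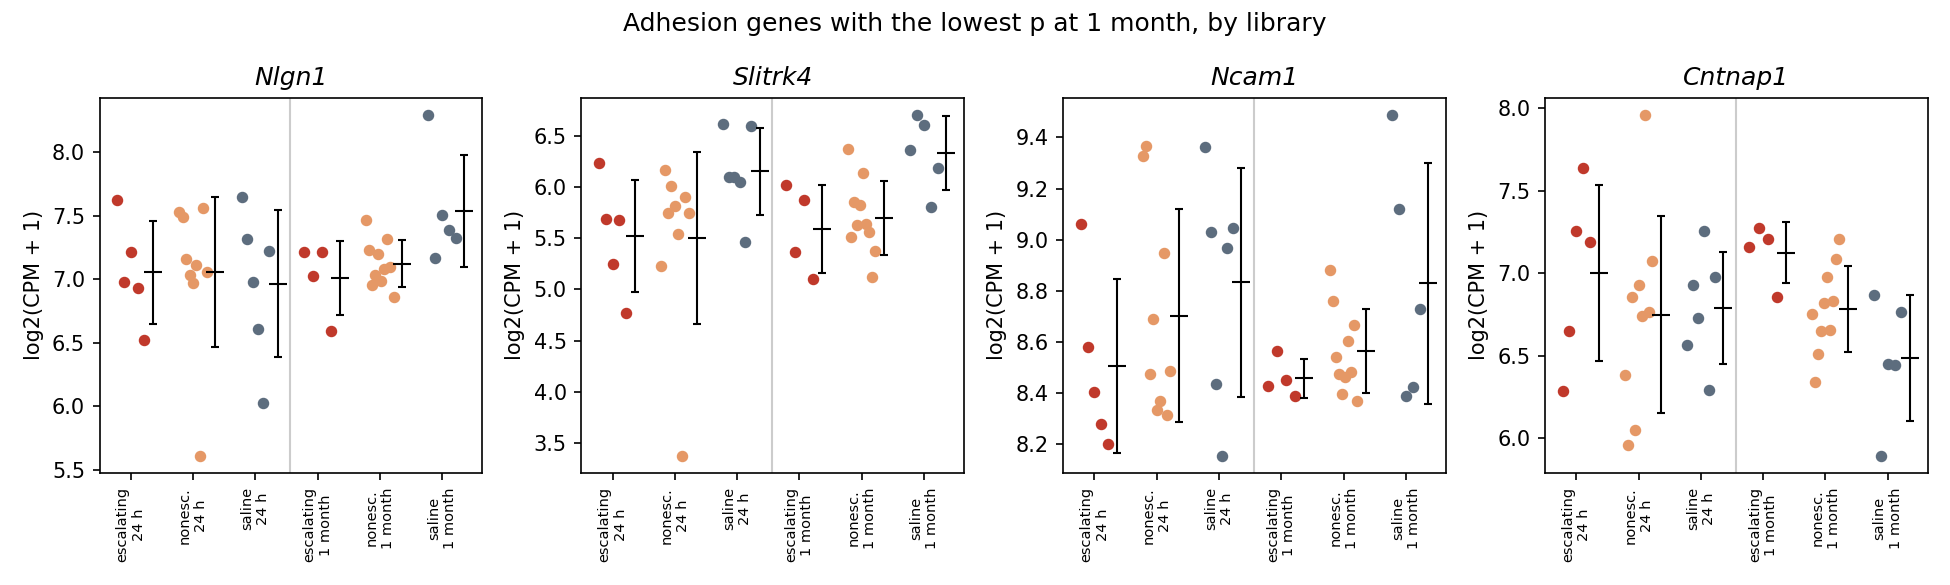
Nlgn1, Slitrk4, Ncam1 and Cntnap1 as log2(CPM + 1), 1 point per library in each of the 6 groups, with the group mean and SD as a bar beside the points. At 1 month Slitrk4 averages 48.7 CPM in escalating and 52.5 CPM in nonescalating libraries, against 81.3 CPM in saline libraries, and the saline point of Nlgn1 at 312 CPM stands alone.

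The matrix genes at 1 month showed no common direction. With escalating mice 4 were higher and 3 lower than in saline (median log2 fold change 0.19), and with nonescalating mice likewise 4 and 3 (median 0.04). Ncan averaged 331 ± 23.6 CPM in escalating and 335 ± 101 CPM in nonescalating libraries, against 383 ± 97.7 CPM in saline libraries (SD, n = 4, 10 and 5). Its log2 fold change with escalating mice was −0.20 ± 0.21 (edgeR p = 0.353), and that of Vcan 0.46 ± 0.55 (edgeR p = 0.404).

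Bcan had 6.82, 5.45, 4.41 and 5.80 CPM in escalating libraries. It had 1.46 to 49.6 CPM in nonescalating libraries (median 6.75), against 1.18, 2.12, 8.52, 9.53 and 3.52 CPM in saline libraries. Nonescalating library 1596 alone lay above 20 CPM. With nonescalating mice the log2 fold change was 1.31 ± 0.64 (SE, edgeR p = 0.0499, adjusted p = 0.986), and 0.71 without library 1596. Vcan was at 0.86 ± 0.46 (edgeR p = 0.074, adjusted p = 0.986). In that comparison 8 of 8 tested oligodendrocyte markers were also higher than in saline, with sums of 103 to 699 CPM in nonescalating and 111 to 243 CPM in saline libraries. Vascular markers were higher in 12 of 12 (median log2 fold change 0.69). Astrocyte markers were higher in 4 and lower in 6 (median −0.39), and oligodendrocyte precursor markers higher in 3 and lower in 3 (median 0.22). The part of these lists in the Bcan value was not tested.

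Escalating and nonescalating mice at 1 month gave medians near 0, −0.01 for adhesion genes (11 higher, 17 lower) and −0.02 for matrix genes (3 higher, 4 lower). Of all genes, 54.6% were lower. No member had an unadjusted p under 0.05, against 2.31% of all genes. The lowest edgeR p-values after that of Cntnap1 were those of Cadm3 (log2 fold change −0.30 ± 0.22, p = 0.186), Lrrtm1 (−0.26 ± 0.20, p = 0.215) and Ptprs (0.18 ± 0.14, p = 0.216). Among matrix genes they were Bcan (−1.12 ± 0.69, p = 0.119) and Hapln4 (−0.58 ± 0.51, p = 0.264). Adjusted p was 0.999 for each of these 5 genes. Without library 1596 Cadm3 was at −0.13, Lrrtm1 at −0.15 and Bcan at −0.52, and without library 1607 Ptprs was at 0.05.

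**Figure D4:**
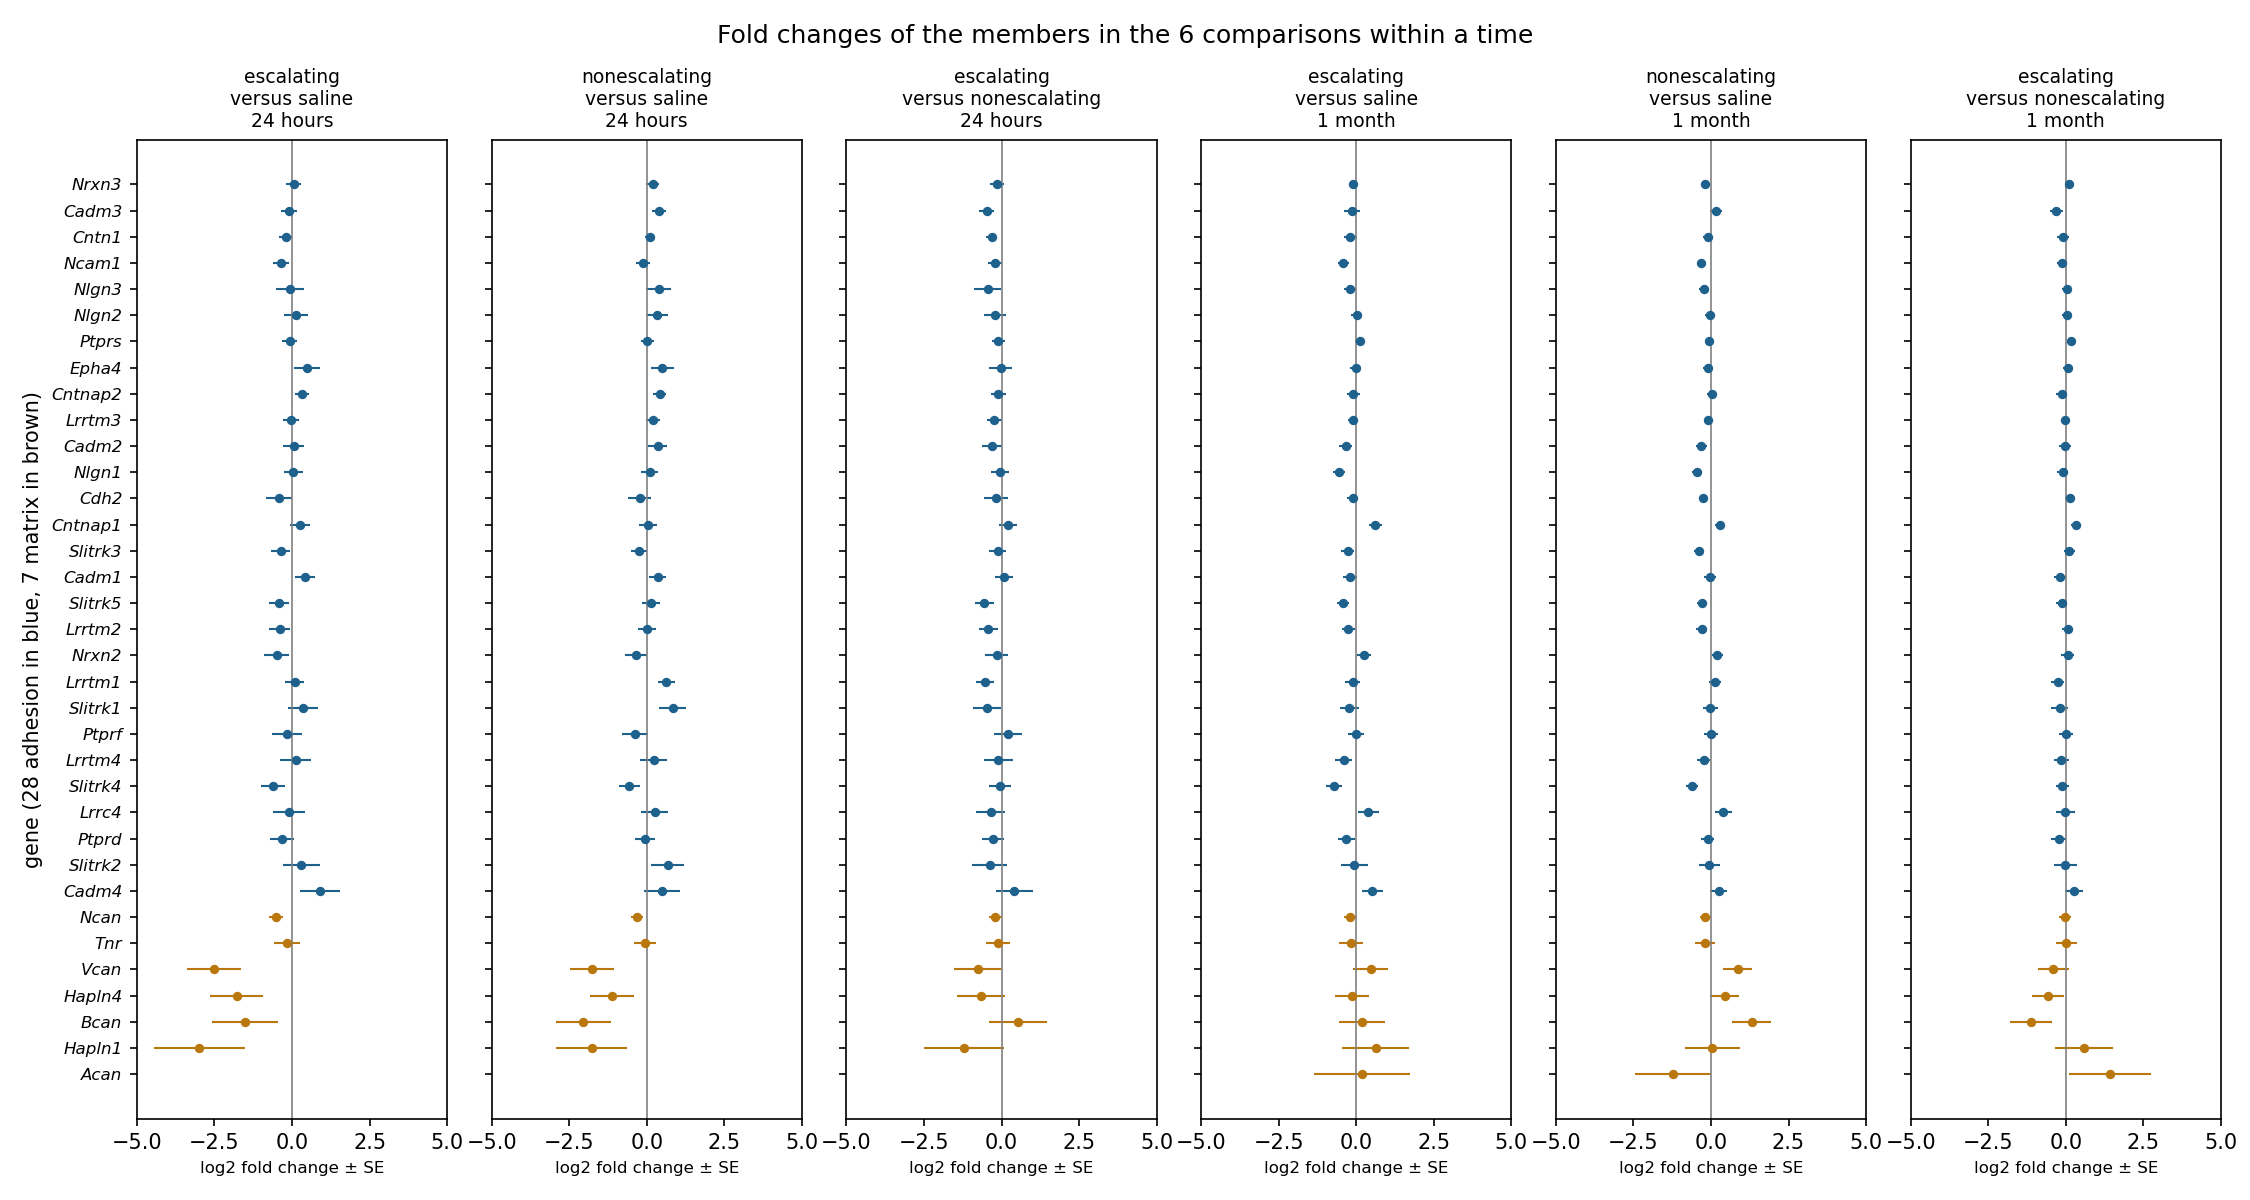
Log2 fold change ± SE from edgeR of each member in the 6 comparisons within a time, adhesion genes in blue and matrix genes in brown, 0 marked by a line. Adhesion genes stay within −0.73 to 0.91, while matrix genes below Ncan and Tnr lie left of 0 against saline at 24 hours (to −2.99 for Hapln1) and on both sides at 1 month.

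The last question is how levels at 1 month compared with those at 24 hours. Library indices restart at each time, so time and library set cannot be told apart. EdgeR, fitted over 39 libraries and 15579 genes, called no member and 0% of genes in the escalating, nonescalating or saline comparison. In saline mice the matrix median was −1.39 (6 of 7 lower, against 53.5% of all genes) and the adhesion median 0.26 (23 of 28 higher, against 46.4%). Without libraries 1573, 1574 and 1582 these were −0.20 and 0.02. With all libraries, 10 of 10 oligodendrocyte markers (median −1.97), 12 of 12 vascular (−2.11), 8 of 10 astrocyte (−0.95) and 8 of 9 interneuron markers (−2.01) were also lower at 1 month in saline mice. Their part in the matrix values was not tested. In escalating mice the medians were 0.19 for matrix and 0.13 for adhesion genes, and in nonescalating mice 0.01 and −0.05. Unadjusted p was under 0.05 for 4 members in saline mice (13% of all genes) and for 0 in each cocaine group (1.72% of all genes in escalating and 4.64% in nonescalating mice). DESeq2 called 6, 3 and 583 genes in escalating, nonescalating and saline mice, of which 1 was a member, and limma voom 0.

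That member was Vcan in saline mice. It had 6.23, 4.07, 8.09, 7.11 and 5.24 CPM at 1 month, against 1.69 to 177 CPM at 24 hours (median 16.1). The 1-month libraries lay close together and above the lowest 24-hour library. DESeq2 gave a log2 fold change of −2.99 ± 0.68 (adjusted p = 0.00277), and edgeR −2.78 ± 0.75 (p = 0.000567, adjusted p = 0.126). By edgeR it was −1.30 without library 1574. Bcan was at −2.11 ± 0.95 (edgeR p = 0.0307, adjusted p = 0.323), and at 0.59 without library 1573.

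Of the adhesion genes in saline mice, Nlgn1 averaged 192 ± 68.3 CPM at 1 month and 132 ± 47.6 CPM at 24 hours (SD, n = 5 and 6). Its log2 fold change was 0.54 ± 0.25 (SE, edgeR p = 0.0377, adjusted p = 0.347), and 0.29 without library 1590. Epha4 (0.66 ± 0.34), Lrrtm4 (0.69 ± 0.40) and Nrxn2 (−0.61 ± 0.33) followed with edgeR p of 0.0537, 0.0884 and 0.07. Single libraries moved these to 0.42 (Epha4 without 1574), 0.43 (Lrrtm4 without 1590) and −0.38 (Nrxn2 without 1573). In nonescalating mice the lowest p-values were those of Slitrk1 (−0.55 ± 0.31, edgeR p = 0.0834), Lrrtm2 (−0.34 ± 0.20, p = 0.106), Cadm2 (−0.36 ± 0.22, p = 0.113) and Ptprd (−0.30 ± 0.24, p = 0.214), with Bcan (1.20 ± 0.69, p = 0.0909) and Acan (−1.42 ± 1.26, p = 0.267) among matrix genes. Without library 1582 Slitrk1 was at −0.20, Cadm2 at −0.08 and Ptprd at −0.02, and without library 1596 Bcan was at 0.59. In escalating mice they were those of Cdh2 (0.49 ± 0.35, edgeR p = 0.173), Lrrc4 (0.57 ± 0.47, p = 0.234), Slitrk5 (0.35 ± 0.29, p = 0.237) and Ptprs (0.21 ± 0.22, p = 0.341), with Acan (2.29 ± 1.87, p = 0.228) and Ncan (0.19 ± 0.23, p = 0.432). Without library 1607 Lrrc4 was at 0.17 and Ptprs at 0.08, and without library 1588 Cdh2 was at 0.27 and Ncan at 0.05. Adjusted p was 1 for each of these 12 values. Acan rests on at most 16 counts per library in these cocaine groups outside nonescalating library 1583 (95 counts).

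Whether the cocaine difference itself shifted with time was tested as an interaction, and edgeR called no member and 0% of genes. Unadjusted p was under 0.05 for 2 members with escalating against saline, 2 with nonescalating against saline and 0 with escalating against nonescalating mice (4.94%, 9.8% and 2.3% of all genes). DESeq2 called 10, 109 and 6 genes in these tests, none of them members, and limma voom 0. For escalating against saline mice the shift had a median of 1.65 for matrix genes (6 of 7 higher, 51.4% of all genes) and −0.11 for adhesion genes. Vcan was at 2.94 ± 1.05 (SE, edgeR p = 0.00719, adjusted p = 0.998) and Hapln1 at 3.60 ± 1.77 (p = 0.048, adjusted p = 0.998). For nonescalating against saline mice the medians were 1.55 and −0.32 (24 of 28 adhesion genes lower, 47.2% of all genes), with Bcan at 3.31 ± 1.18 (edgeR p = 0.00714, adjusted p = 0.305) and Vcan at 2.60 ± 0.89 (p = 0.00541, adjusted p = 0.288). Without library 1574, Vcan was at 1.47 and Hapln1 at 1.49 for escalating mice and Vcan at 1.12 for nonescalating mice, and without library 1573 Bcan was at 0.60. Without libraries 1573, 1574 and 1582 the matrix medians were 0.69 and 0.19. With all libraries in these tests, oligodendrocyte markers were higher in 10 of 10 (median 1.73) and 9 of 10 (1.90), vascular in 12 of 12 (0.94) and 12 of 12 (2.36), astrocyte in 7 of 10 (1.17) and 8 of 10 (1.05), and interneuron in 8 of 9 (2.12) and 6 of 9 (1.03), for escalating and nonescalating against saline mice. Their part in the matrix values was not tested. For escalating against nonescalating mice the medians were 0.18 and 0.21.

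The adhesion genes with the lowest p in these tests were Nlgn1 (−0.61 ± 0.38, edgeR p = 0.115), Cadm1 (−0.64 ± 0.40, p = 0.118), Nrxn2 (0.73 ± 0.49, p = 0.138) and Cntnap2 (−0.42 ± 0.33, p = 0.203) for escalating against saline mice. For nonescalating against saline mice they were Cadm2 (−0.68 ± 0.37, edgeR p = 0.0706), Nlgn1 (−0.56 ± 0.32, p = 0.0887), Nrxn3 (−0.40 ± 0.24, p = 0.0957) and Slitrk1 (−0.86 ± 0.51, p = 0.099). For escalating against nonescalating mice they were Lrrtm2 (0.47 ± 0.36, edgeR p = 0.197), Slitrk5 (0.42 ± 0.36, p = 0.249), Ptprs (0.28 ± 0.27, p = 0.304) and Nrxn3 (0.25 ± 0.25, p = 0.337), with Acan at 3.70 ± 2.27 (p = 0.109) and Bcan at −1.66 ± 1.23 (p = 0.184). Adjusted p was 0.558 or higher for each of these 14 values. Single libraries moved several of them: without 1590 Nlgn1 was at −0.37 for escalating and −0.29 for nonescalating mice against saline. Without 1582 Cadm2 was at −0.40 and Slitrk1 at −0.51, and without 1574 Nrxn3 was at −0.21. Between the cocaine groups Slitrk5 was at 0.23 without 1582, Ptprs at 0.14 without 1607, Acan at 1.29 without 1583 and Bcan at −1.06 without 1596.

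Of other genes of the same systems, edgeR called 0 in 12 comparisons. Of 40 further adhesion genes, 28 of 40 tested were lower in escalating mice than in saline at 24 hours (median log2 fold change −0.26) and 20 of 40 in nonescalating mice (median 0.01), against 54.4% and 52.4% of all genes. Lrfn3 (−1.27 ± 0.51, edgeR p = 0.0196) and Nrcam (−0.54 ± 0.23, p = 0.023) had the lowest p with escalating mice, and Efnb2 (0.61 ± 0.23, p = 0.0154) and Mdga1 (−1.31 ± 0.68, p = 0.0658) with nonescalating mice. At 1 month 21 of 39 were lower with escalating and 27 of 39 with nonescalating mice (medians −0.13 and −0.10), against 51% and 47.5% of all genes, led with escalating mice by Lrrc4c (−0.49 ± 0.22, edgeR p = 0.0311), a netrin-G ligand, and with nonescalating mice by Lrfn5 (−0.54 ± 0.21, p = 0.0177).

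Of 32 further matrix genes, 24 were tested at 24 hours and 25 at 1 month. At 24 hours 16 were lower in escalating mice and 13 in nonescalating mice (medians −0.20 and −0.13), against the same 54.4% and 52.4% of all genes. Reln (reelin, −0.86 ± 0.33, edgeR p = 0.0149) and Cspg5 (neuroglycan C, −0.94 ± 0.37, p = 0.0188) led with escalating mice. Cspg4 (NG2, a proteoglycan of oligodendrocyte precursors and pericytes) was at −1.57 ± 0.67 with nonescalating mice at 24 hours (edgeR p = 0.0272). At 1 month it was at 1.85 ± 0.63 with escalating and 1.70 ± 0.55 with nonescalating mice (edgeR p = 0.00656 and 0.00455, adjusted p = 1 and 0.986). Cspg4 averaged 49.7 CPM at 24 hours and 3.89 CPM at 1 month in saline mice, against 16.9 and 12.5 CPM in nonescalating mice. Over time its log2 fold change in saline mice was −3.67 ± 0.8 (edgeR p = 3.74e-05, adjusted p = 0.12), and these groups did not overlap. The change of sign with nonescalating mice thus lay mainly in the saline mean. Cspg4 values without the libraries that stood apart are not given here. Summed vascular markers ran from 250 to 1020 CPM in escalating and 87.8 to 1290 CPM in nonescalating libraries, against 72.0 to 475 CPM in saline libraries at 1 month, with 11 and 12 of 12 higher than in saline. Oligodendrocyte precursor markers at 1 month were higher in 3 and lower in 3 with each cocaine group (medians −0.1 with escalating and 0.22 with nonescalating mice). The part of both lists in the Cspg4 values was not tested.

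Across the 39 libraries, members were set against 5 marker lists of other cell types and of medium spiny neurons (175 pairs, permutation tests with 100000 resamples, two-sided). No pair passed a Benjamini-Hochberg adjusted p of 0.05 by either Pearson's r or Spearman's rho, and 16 pairs had an unadjusted p under 0.05 by both. Bcan and oligodendrocyte markers gave r = 0.53 and rho = 0.45 (permutation p = 0.00114 and 0.00501, adjusted p = 0.0896 and 0.175). Within a time r was 0.46 at 1 month and 0.62 at 24 hours, and without libraries 1573 and 1574, the farthest from the median of the list, it was 0.38 over the rest. Bcan and astrocyte markers gave r = 0.51 and rho = 0.38 (permutation p = 0.00147 and 0.0189, adjusted p = 0.0896 and 0.294). Ncan and astrocyte markers gave r = −0.11 and rho = −0.07 (permutation p = 0.522 and 0.669). A member and a list share the depth and scaling of each library.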

How the data were processed

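Ribosome-bound RNA of 40 immunopurified libraries was analysed. The deposited files give whole-number read counts per gene symbol, not normalized. Reads were aligned with STAR 2.0.0e to mm10 and counted with HTSeq, per the submitters' processing notes. Nothing used here states the HTSeq version, annotation or strand setting, so reads of overlapping and antisense genes may not be separable. Summary lines (5 per file) stayed out of totals. Totals were 3.77 to 33.9 M in the 39 libraries used.

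The 35 members and the related and marker lists were chosen with earlier results of these data known. Comparisons within a time were fitted with edgeR 4.0.16 (R 4.3.3) over the 19 or 20 libraries of that time, and comparisons between times over 39, with filterByExpr (minimum count 10), TMM, robust dispersion estimates and the two-sided quasi-likelihood test, adjusted over all genes tested (threshold 0.05). DESeq2 1.42.0 and limma 3.58.1 were alternatives. The fits were first tested on simulated counts with the same dispersion for every gene and no library set apart. That checks the code, not the power of the fits in these more variable data. Members named with statistics are, per comparison, the 4 adhesion and 2 matrix genes with the smallest unadjusted p. Related genes named for the comparisons with saline within a time are those with the smallest p of each list, at most 2 per comparison. Within-group pairs of libraries (122) differed by a chi-square per gene of 12.8 to 309, so none repeats another within sampling noise. Promoter sequences are from RefSeq (GRCm38.p6) and gene positions from GENCODE vM21.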

Additional observations from a re-analysis of the deposited data

Results flagged for a closer look

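Of 210 values examined (35 genes in 6 groups), 38 had 1 library set apart from the rest of its group by Dixon's test at 95%. Of these libraries 30 were high and 8 low. Library 1582 accounted for 10, library 1596 for 7, library 1574 for 5, and libraries 1573 and 1590 for 3 each. Chance flags about 1 in 20 where values are normally distributed. The test was run on CPM, which need not be so distributed. The share flagged over all genes is not given, so the count cannot be read as particular to these genes.

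In nonescalating library 1582 (24 hours), 8 genes stood above the other libraries of the group. They were Nlgn2 (336 CPM), Nlgn3 (570 CPM), Cadm2 (458 CPM), Slitrk1 (265 CPM), Slitrk5 (246 CPM), Ptprd (160 CPM), Cntnap1 (248 CPM) and Bcan (16 CPM). Nlgn1 (47.9 CPM) and Ptprf (2.16 CPM) stood below. The other 24-hour nonescalating values were Cadm4 in library 1578 (52.9 CPM) and Acan in library 1583 (7.39 CPM), both high.

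In nonescalating library 1596 (1 month), Nlgn2 (418 CPM), Lrrtm1 (119 CPM), Ptprd (88.3 CPM), Cntn1 (778 CPM), Epha4 (336 CPM) and Bcan (49.6 CPM) stood above the group, and Tnr (7.15 CPM) below it. In the same group Nrxn3 was low in library 1605 (450 CPM), Slitrk1 high in library 1604 (118 CPM) and Acan high in library 1602 (1.71 CPM). Among escalating libraries, Cadm1 was high in library 1588 at 24 hours (182 CPM) and Lrrc4 in library 1607 at 1 month (118 CPM).

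In saline library 1574 (24 hours), Nrxn3 (164 CPM), Nlgn3 (5.45 CPM) and Lrrtm4 (1.16 CPM) were low, and Vcan (177 CPM) and Hapln1 (25.8 CPM), which are neighbours on chromosome 13, were high. In saline library 1573, Bcan (114 CPM) and Tnr (171 CPM) were high and Cntn1 (229 CPM) low, and in library 1572 Ptprs was high (353 CPM). At 1 month, saline library 1590 was high in Nrxn3 (845 CPM), Nlgn1 (312 CPM) and Nlgn3 (412 CPM), library 1592 in Slitrk2 (55.2 CPM) and library 1594 in Acan (3.14 CPM). No interaction between time and group passed an adjusted p of 0.05 in a member by edgeR.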

How the results depend on the processing

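No member was called under other size factors, without the filter on low counts, with limma voom, with a replicate block, with any 1 library left out, without libraries 1573, 1574 and 1582, with all libraries in one fit, or with the first run of nonescalating numbers alone. DESeq2 called 1 member, Vcan in saline mice at 1 month against 24 hours (log2 fold change −2.99, adjusted p = 0.00277). Over all genes DESeq2 called up to 583 (saline, 1 month against 24 hours) against 0 by edgeR, and 164 for nonescalating against saline at 24 hours. For the latter, edgeR called 129 genes with all 39 libraries in one fit. Unadjusted p was then under 0.05 for 6 of 35 members, against 2511 of 15579 genes. In saline mice over time, edgeR called up to 99 genes with 1 library left out. The cause was not tested.

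Without libraries 1573, 1574 and 1582 the matrix median log2 fold change was −0.33 with escalating and 0.07 with nonescalating mice against saline at 24 hours, −0.20 in saline mice over time, and 0.69 and 0.19 for the shift over time of escalating and nonescalating against saline. The adhesion median of the last was −0.07. Bcan then turned to 0.29 (nonescalating against saline, 24 hours) and 0.58 (saline over time). With limma voom the matrix medians were −0.27 (nonescalating against saline, 24 hours), −0.25 (saline over time) and 0.44 (shift of nonescalating against saline). In nonescalating mice over time Acan turned to 0.19 with limma voom and to 0.36 with the first run of numbers, and Cadm2 to 0.01 with that first run.

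Leaving out 1 library at a time gave matrix medians of −1.68 to −0.32 (nonescalating against saline, 24 hours), −2.01 to −0.15 (saline over time) and 0.16 to 1.82 (shift of nonescalating against saline). Bcan ranged from −2.44 to 0.71 and from −2.48 to 0.59 in the first 2 of these, and Acan from −2.16 to 0.98 in nonescalating mice over time. Libraries 1573 (Bcan and the saline median), 1574 (the other medians) and 1583 (Acan) gave the values nearest to or past 0.

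Of libraries with the same replicate number at a time, 5 of 22 pairs at 24 hours and 2 of 20 at 1 month correlated above 0.1. Their median correlation was −0.01 at 24 hours and 0.02 at 1 month, against −0.01 for other pairs at each time. Expression alone cannot show whether the numbers mark a shared day or batch. The replicate block added the replicate number within a time to the fit. With it 0 members were called. Ncan in escalating mice over time turned to −0.04 and Acan in nonescalating mice to 1.92. The fits within 1 month hold none of libraries 1573, 1574 and 1582, and those within 24 hours do not hold library 1595.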
